A study of Mus musculus with 2 samples.

Results

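Mitochondrial ribosomal protein genes were taken as every gene whose symbol starts with Mrpl or Mrps and a digit and that held at least 50 UMIs (unique molecular identifiers, each standing for 1 captured RNA molecule) over both libraries. There were 78 such genes among 22620, and none with these symbols fell below the minimum. They held 210392 of 89608802 UMIs. Mrpl53 was nearest to the minimum with 53 UMIs, followed by Mrps11 with 566, and Mrps9 had the most with 12363.

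Brown adipose tissue of 4-week-old mice was profiled nucleus by nucleus, with 1 library labelled KO and 1 labelled Flox. The KO is given as Nfe2l1(f)-KO, a knockout of the gene of the transcription factor NFE2L1, and Flox as its floxed counterpart. The Cre driver, the deleted part of the gene, the strain, the sex and the number of mice behind each library are not stated by any source used here. With 1 library per genotype, no difference between genotypes has a replicate check and no test was possible, so values are set side by side with 95% intervals that cover counting error only. The KO library held 13030 barcodes and 43080725 UMIs, against 16145 barcodes and 46528077 UMIs in the Flox library. Filtering and removal of doublets left 11570 KO and 13986 Flox nuclei, whose median depths were 2642 and 2254 UMIs. The libraries shared 65 barcodes, 50 of them among kept nuclei. Nfe2l1 went against the label in adipocyte-like nuclei, with 313 CPM (UMIs of the gene relative to the UMI total of the class) in KO and 131 CPM in Flox, a ratio of 2.38 (2.29 to 2.48). In T/NK-like nuclei the ratio was 1.96 (1.34 to 2.90). It was 1.08 in fibroblast/progenitor-like, 1.17 in endothelial-like, 1.02 in pericyte/smooth muscle-like and 1.32 in macrophage/monocyte-like nuclei, with intervals that included 1. The cause was not tested. Since the deleted part is not stated, these values do not decide the label. Every direction given here is that of the library labelled KO over the library labelled Flox.

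Mitochondria carry their own ribosome, which translates only the few proteins encoded by mitochondrial DNA, all of them subunits of the respiratory chain and ATP synthase. Its RNAs come from mitochondrial DNA, while its proteins are encoded in the nucleus, made in the cytosol and imported. Brown adipocytes are rich in mitochondria and depend on the respiratory chain for heat production.

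By the place of the protein in the mammalian mitoribosome, 51 of the 78 genes encode proteins of the large subunit and 26 of the small subunit. Mrps18a and Mrps30 carry small-subunit symbols but their proteins sit in the large subunit. Mrps36 is not a ribosomal protein but a component of the 2-oxoglutarate dehydrogenase complex of the citric acid cycle. By the nomenclature of ribosomal proteins, 46 are counted with families shared with bacterial ribosomes and 31 as specific to mitochondria, Mrps18a and Mrps18b, relatives of bacterial S18 with places of their own, among the 31. The genes lie on 17 chromosomes, with 11 on chromosome 11 and 0 on X or Y. They are short, with a median length of 7.90 kb (0.789 to 122 kb), against 17.7 kb for all protein-coding genes, and 53 are under 10 kb.

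Many of these genes have close neighbours. In 18 of the 78 (23.1%) another protein-coding gene starts within 1000 bases in the opposite direction, against 1479 of 21744 protein-coding genes (6.80%). The neighbours of that kind include Sars2, the mitochondrial seryl-tRNA synthetase, beside Mrps12 and the proteasome gene Psma2 beside Mrpl32. In all, 25 of the 78 overlap another gene, 22 on the opposite strand and 4 on the same strand, with Mrps34 in both counts. Mrpl43 overlaps Twnk, the mitochondrial DNA helicase gene, Mrpl36 overlaps the complex I gene Ndufs6, and Mrpl46 and Mrps11 overlap each other. Whether strand was used in counting is not stated, so the counts of overlapping genes may be shared with the partner.

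Promoter sequences from RefSeq (GRCm38.p6, 250 bases before to 50 after the start) were found for 69 of the genes, giving 75 promoters. They were richer in G and C, with a median of 58.7% against 52.7% for all 32851 promoters, and the TATA letters TATAAA occurred in 5 (6.67%) against 13.6%. Factors known for driving genes of mitochondrial biogenesis include nuclear respiratory factor 1, the ETS factor GABPA and YY1. The first of these is the product of Nrf1 and is a different protein from NFE2L1, although both are called NRF1. On either strand, the YY1 letters AAGATGGCG occurred in 8 promoters (10.7%, 4.72 to 19.9) against 1.40% of all, and the ETS letters CCGGAAGT in 12 (16%, 8.55 to 26.3) against 3.89%. The palindromic consensus of nuclear respiratory factor 1 occurred in 3 (4.00%, 0.833 to 11.2) against 0.971%, which lay inside the interval. At least 1 of these 3 motifs was found in 22 promoters (29.3%), against 6.05% of all. NFE2L1 and its relatives bind antioxidant response elements as dimers with small MAF proteins. The core letters TGACNNNGC occurred in 14 promoters (18.7%, 10.6 to 29.3) against 12.4%, which lay inside the interval. The longer site of CNC factors with small MAF proteins occurred in 0 against 0.155%. The E-box letters CACGTG of the MYC family occurred in 7 (9.33%, 3.84 to 18.3) against 7.15%. A match is a run of letters in this window and not a shown binding site.

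The promoters of the genes with the highest and the lowest ratios in adipocyte-like nuclei, Mrpl34 (chr8:71464676-71464975, plus strand), Mrpl50 (chr4:49521034-49521333, minus strand), Mrps24 (chr11:5707652-5707951, minus strand) and Mrps26 (chr2:130563507-130563806, plus strand), are shown 5′ to 3′ with that of Mrps27 (chr13:99344536-99344835, plus strand), which held 2 of the motifs. Capitals mark the antioxidant response element letters in Mrpl34 and Mrpl50, the YY1 letters in Mrps24, the ETS letters in Mrps26, and the ETS and then the YY1 letters in Mrps27. The antioxidant response element letters were absent from the promoters of Mrps2, Mrpl44, Mrpl12, Mrpl46, Mrpl57 and Mrps16, the genes with the next highest ratios. They were present in that of Mrpl58, which is among the lowest.
Mrpl34: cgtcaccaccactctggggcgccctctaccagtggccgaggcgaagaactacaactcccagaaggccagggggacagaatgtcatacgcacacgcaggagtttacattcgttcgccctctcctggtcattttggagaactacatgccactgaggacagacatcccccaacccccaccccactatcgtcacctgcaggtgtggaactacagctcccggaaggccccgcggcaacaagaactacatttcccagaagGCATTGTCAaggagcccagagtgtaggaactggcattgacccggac
Mrpl50: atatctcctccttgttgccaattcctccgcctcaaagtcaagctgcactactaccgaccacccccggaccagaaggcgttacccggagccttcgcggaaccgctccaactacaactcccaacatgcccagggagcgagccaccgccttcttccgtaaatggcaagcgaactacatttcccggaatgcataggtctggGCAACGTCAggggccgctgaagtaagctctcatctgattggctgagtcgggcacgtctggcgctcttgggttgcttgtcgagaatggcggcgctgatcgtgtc
Mrps24: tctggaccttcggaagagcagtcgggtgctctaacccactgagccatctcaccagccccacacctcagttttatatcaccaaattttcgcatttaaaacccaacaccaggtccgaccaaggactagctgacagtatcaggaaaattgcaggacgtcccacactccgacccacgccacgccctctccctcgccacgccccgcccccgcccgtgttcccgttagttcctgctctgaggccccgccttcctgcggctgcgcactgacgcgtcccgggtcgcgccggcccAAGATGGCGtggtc
Mrps26: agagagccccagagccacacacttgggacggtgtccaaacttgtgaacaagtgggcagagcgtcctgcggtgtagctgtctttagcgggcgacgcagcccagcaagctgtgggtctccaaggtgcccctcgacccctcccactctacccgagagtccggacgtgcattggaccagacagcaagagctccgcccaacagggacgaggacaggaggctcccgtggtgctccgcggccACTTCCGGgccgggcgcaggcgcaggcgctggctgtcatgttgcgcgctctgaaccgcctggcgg
Mrps27: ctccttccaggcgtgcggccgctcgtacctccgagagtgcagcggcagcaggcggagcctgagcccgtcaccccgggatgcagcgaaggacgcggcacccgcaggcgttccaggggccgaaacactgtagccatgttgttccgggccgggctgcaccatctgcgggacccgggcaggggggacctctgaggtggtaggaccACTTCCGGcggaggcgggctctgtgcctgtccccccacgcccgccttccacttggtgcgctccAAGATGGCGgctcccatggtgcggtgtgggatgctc

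Every class of nuclei held transcripts of these genes, and adipocyte-like nuclei held more of them per UMI than the other 5 classes compared between genotypes. Classes were named from marker genes, and all 12 adipocyte markers, among them Adipoq, Plin1 and Cidea, had UMIs in the adipocyte-like nuclei of both libraries. There the summed level of these markers was 18438 CPM in KO and 18808 in Flox. Summed over the 78 genes, adipocyte-like nuclei had 2580 CPM (2561 to 2598) in KO and 2456 CPM (2438 to 2475) in Flox, over 8237 and 8881 nuclei. Fibroblast/progenitor-like nuclei had 1477 CPM in KO and 1592 in Flox, macrophage/monocyte-like nuclei 1435 and 1437, pericyte/smooth muscle-like nuclei 1649 and 1733, and endothelial-like nuclei 1604 and 1953. T/NK-like nuclei came nearer to adipocyte-like nuclei, with 2041 CPM in KO and 2015 in Flox. These T/NK-like nuclei also held UMIs of all 12 adipocyte markers, at a summed level of 6562 CPM in KO and 8662 in Flox, beside all 12 T/NK markers at 3239 and 2031 CPM. Macrophage/monocyte markers had UMIs for 10 of 11 genes in each library (978 and 1504 CPM, Fcgr1 at 0). Dendritic markers had them for 7 of 7 (1009 and 1129 CPM), B cell markers for 7 of 7 (690 and 461 CPM) and mast cell markers for 6 of 6 (513 and 800 CPM). Their part in the level was not tested. In both libraries the adipocyte-like interval lay above those of these other 5 classes. The summed level was highest in erythroid-like nuclei, at 2945 CPM (2592 to 3332) in KO and 3982 (3696 to 4285) in Flox, but these were only 28 and 61 nuclei. In the same nuclei the cytosolic ribosomal protein genes reached 22192 and 29254 CPM. Skeletal muscle-like nuclei, rich in mitochondria as a cell type, had 2209 CPM in KO and 2399 in Flox, over 78 and 316 nuclei, and in Flox its interval (2289 to 2512) overlapped that of adipocyte-like nuclei.

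**Figure D1:**
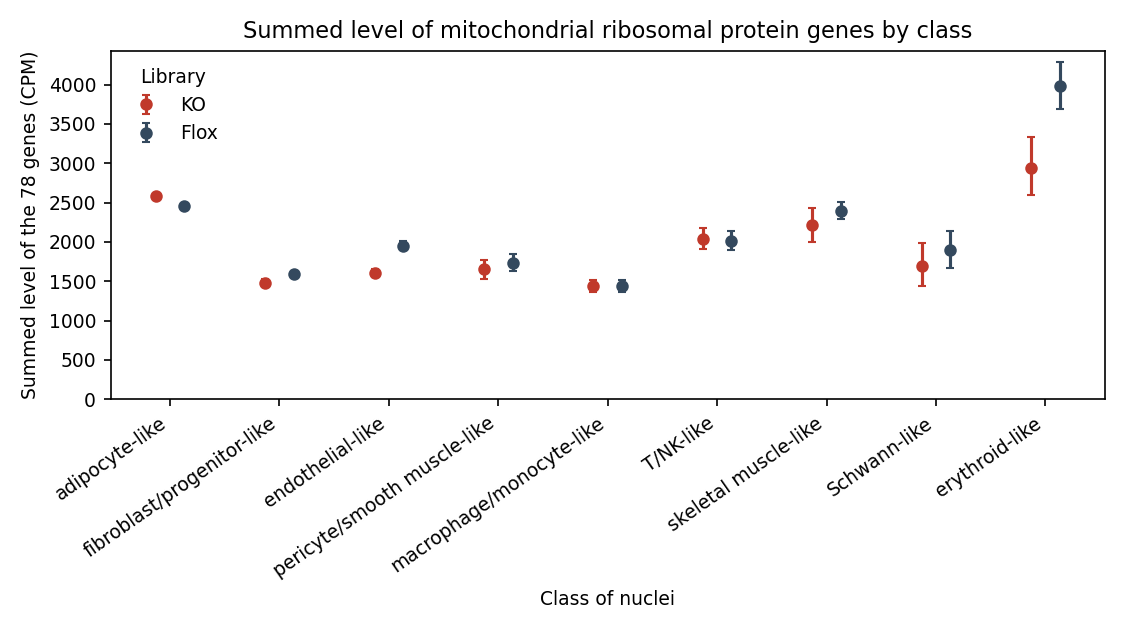
Summed level of the 78 genes in CPM of each class (vertical axis) for each class of nuclei (horizontal axis), with the KO library left of the Flox library. Points are 1 library each and bars are 95% intervals for counting error. Adipocyte-like nuclei stand at 2580 and 2456 CPM and endothelial-like nuclei at 1604 and 1953 CPM, while erythroid-like nuclei stand highest on few nuclei.

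Per nucleus the counts were small. Adipocyte-like nuclei held a mean of 9.18 UMIs of these genes in KO and 7.79 in Flox, at median depths of 3095 and 2763 UMIs per nucleus. At least 1 such UMI was present in 98.2% and 99.0% of them. With each nucleus thinned to 1000 UMIs and 502 KO and 102 Flox shallower nuclei left out, the shares were 91.3% (90.6 to 91.9) and 90.9% (90.3 to 91.5), and the means 2.58 and 2.52 UMIs. In endothelial-like nuclei the thinned shares were 74.7% (71.3 to 77.8) in KO and 77.7% (74.9 to 80.3) in Flox, after leaving out 243 and 534 shallower nuclei, and the unthinned shares 86.3% and 82.2%. These genes serve every nucleated cell, so no class gives a share for background RNA alone.

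Levels of single genes spanned a wide range. In adipocyte-like nuclei Mrps9, a small-subunit protein of a bacterial family, was the most abundant with 161 CPM in KO and 154 in Flox, and a UMI was found in 37.8% and 35.2% of nuclei. Mrps28 of the small subunit followed with 104 CPM in KO and 112 in Flox, and Mrpl1, the protein of the L1 stalk of the large subunit, with 101 and 89.0 CPM. Mrpl53 was the least abundant, at 0.819 CPM in KO and 0.533 in Flox. These 3 leading genes are long: Mrps9 spans 54.5 kb (chromosome 1, 42851233 to 42905683, mm10), Mrpl1 57.2 kb and Mrps28 122 kb. Across 77 genes measured in adipocyte-like nuclei, log2 gene length and log2 CPM had a Pearson r of 0.50 and a Spearman rho of 0.47, a description in which all points share the same libraries.

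Per kilobase of gene the order changed. Mrpl34, a large-subunit protein of a bacterial family whose gene of 0.789 kb is the shortest of the 78 (chromosome 8, 71464959 to 71465747, mm10), stood highest at 34.0 CPM per kb in KO and 22.0 in Flox. Mrpl41 had 21.4 CPM per kb in KO and 22.2 in Flox, and Mrpl24 15.5 and 14.0 CPM per kb. Mrps6 stood lowest at 0.321 CPM per kb in KO and 0.302 in Flox, and it overlaps Slc5a3 on the same strand. Over all kept nuclei the other genes among the 8 most abundant were Mrpl3, Mrps36, Mrpl15, Mrpl42 and Mrps5, between 62.0 and 79.1 CPM in KO and between 62.3 and 75.7 CPM in Flox.

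Against all other nuclei, the genes differed in how far adipocyte-like nuclei led. Their CPM was above that of the other nuclei for 70 of the 78 genes in KO, for 53 in Flox and for 52 in both. The share over all genes was not counted, so these counts do not set the 78 genes apart from other genes. Mrpl47, a large-subunit protein, led with a log2 ratio of adipocyte-like over other nuclei of 1.81 in KO (45.0 against 12.8 CPM) and 1.29 in Flox (44.4 against 18.1 CPM). Mrps35 of the small subunit had log2 ratios of 1.57 and 1.26, Mrps36 1.65 and 0.99, and Mrpl3, which lies near the peptidyl transferase centre, 1.31 and 1.17. At the other end Mrpl54 had log2 ratios of -0.34 in KO (6.69 against 8.47 CPM) and -1.08 in Flox (5.36 against 11.3 CPM). Mrpl16, Mrpl40 and Mrpl32 were also lower in adipocyte-like nuclei in both libraries, with log2 ratios of -0.17, -0.40 and -0.19 in KO and -0.55, -0.31 and -0.48 in Flox. Mrpl47 overlaps Actl6a and the complex I gene Ndufb5 on the opposite strand. The clusters were drawn from the same nuclei, so these ratios carry no test.

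**Figure D2:**
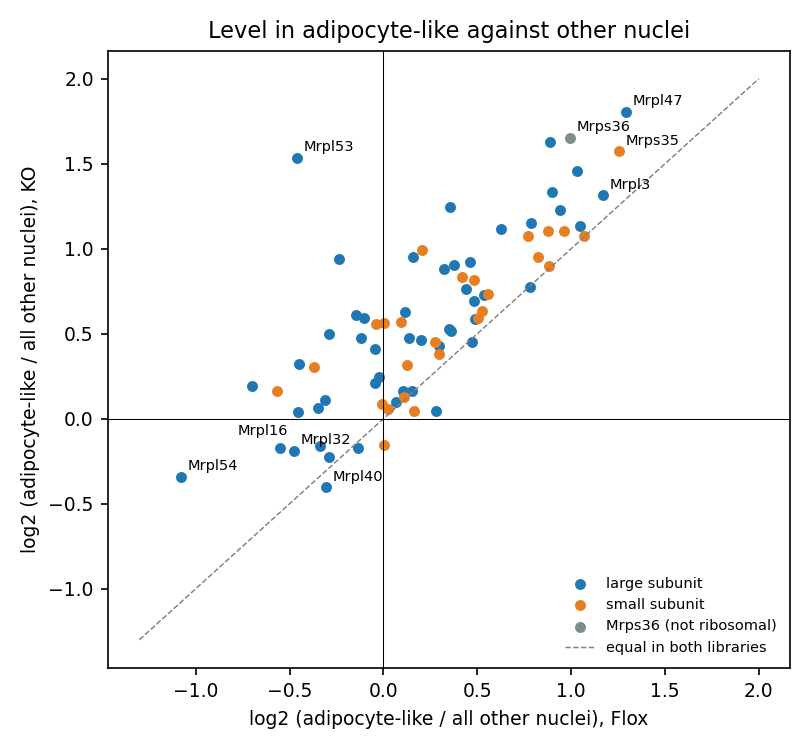
Log2 of the CPM in adipocyte-like nuclei over that in all other nuclei for each of the 78 genes, in KO (vertical axis) and in Flox (horizontal axis), coloured by ribosomal subunit. Mrpl47, at 1.81 and 1.29, and Mrps36, at 1.65 and 0.99, lie at the upper right, and Mrpl54, at -0.34 and -1.08, at the lower left. Mrpl53 stands apart at the upper left with 53 UMIs before filtering.

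Between genotypes, adipocyte-like nuclei of KO had a slightly higher summed level, at a ratio of 1.05 (1.04 to 1.06). Of the 78 genes, 77 had at least 50 UMIs in these nuclei, all but Mrpl53. Their median log2 ratio was 0.09, against -0.06 for all 12333 genes measured, and 56 of the 77 lay above 0, where 40.7% of all genes did. With TMM factors in place of total UMIs these were 66 of 77 and 50.7%, with the mean CPM over nuclei 50 of 77 and 42.6%, and with nuclei thinned to 1000 UMIs 47 of 77 and 43.5%. At least 1.5-fold higher were 3 of the genes, against 2.03% of all genes, and at least 1.5-fold lower were 0, against 8.2%. Large-subunit genes had a median log2 ratio of 0.12 (38 of 50 above 0) and small-subunit genes 0.06 (17 of 26 above 0). Genes of bacterial families had 0.10 and those specific to mitochondria 0.06. Neither split was tested.

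The 3 genes past 1.5-fold were Mrpl34, Mrpl50 and Mrps2. Mrpl34 had 787 UMIs (26.8 CPM, 25 to 28.8) in KO and 488 UMIs (17.3 CPM, 15.8 to 18.9) in Flox, a log2 ratio of 0.63 (0.47 to 0.80). Mrpl50, a mitochondria-specific protein of the large subunit, had 11.4 CPM in KO and 7.39 CPM in Flox, a log2 ratio of 0.62 (0.37 to 0.88). Mrps2, a small-subunit protein of a bacterial family, had 11.8 CPM in KO and 7.85 CPM in Flox, a log2 ratio of 0.59 (0.34 to 0.84). The UMIs were spread over many nuclei: a Mrpl34 UMI was found in 686 KO and 448 Flox nuclei, with at most 3 in any of them. With nuclei thinned to 1000 UMIs the log2 ratio of Mrpl34 was 0.39. With the mean CPM over nuclei no gene was 1.5-fold higher, and the log2 ratios were 0.51 for Mrpl34, 0.53 for Mrpl50 and 0.43 for Mrps2. Without the nuclei of cluster 1, a part of this class, they were 0.48, 0.51 and 0.38. Just under the threshold were Mrpl44, which has a ribonuclease III fold, at 0.57 (0.26 with thinned nuclei), Mrpl12, at 0.55, and Mrpl46, at 0.55. Mrpl12, which forms the flexible stalk that contacts translation factors, had 31.5 CPM in KO and 21.5 CPM in Flox. Mrpl57 and Mrps16 had log2 ratios of 0.48 and 0.41.

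No gene was lower by as much in adipocyte-like nuclei. The lowest were Mrps24, with 25.3 CPM in KO and 30.1 CPM in Flox, a log2 ratio of -0.25 (-0.40 to -0.11), and Mrps26, with 30.1 CPM in KO and 35.7 CPM in Flox, a log2 ratio of -0.24 (-0.38 to -0.11). Both belong to the small subunit, and Mrps24 shares its strand and part of its span with Urgcp. Mrpl21 had -0.14 (-0.26 to -0.03) and Mrps28 -0.11 (-0.18 to -0.03). For Mrpl58, a peptidyl-tRNA hydrolase that became part of the large subunit, at -0.13, and for Mrpl27, Mrps22 and Mrpl33, between -0.13 and -0.10, the intervals included 0. With nuclei thinned to 1000 UMIs, the log2 ratios were -0.33 for Mrpl21, -0.39 for Mrpl58, -0.012 for Mrps28 and 0.47 for Mrps22, which changed side. Of the genes whose symbols and places differ, Mrps18a had a log2 ratio of -0.04 and Mrps30 0.24, and the non-ribosomal Mrps36 had 0.13.

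**Figure D3:**
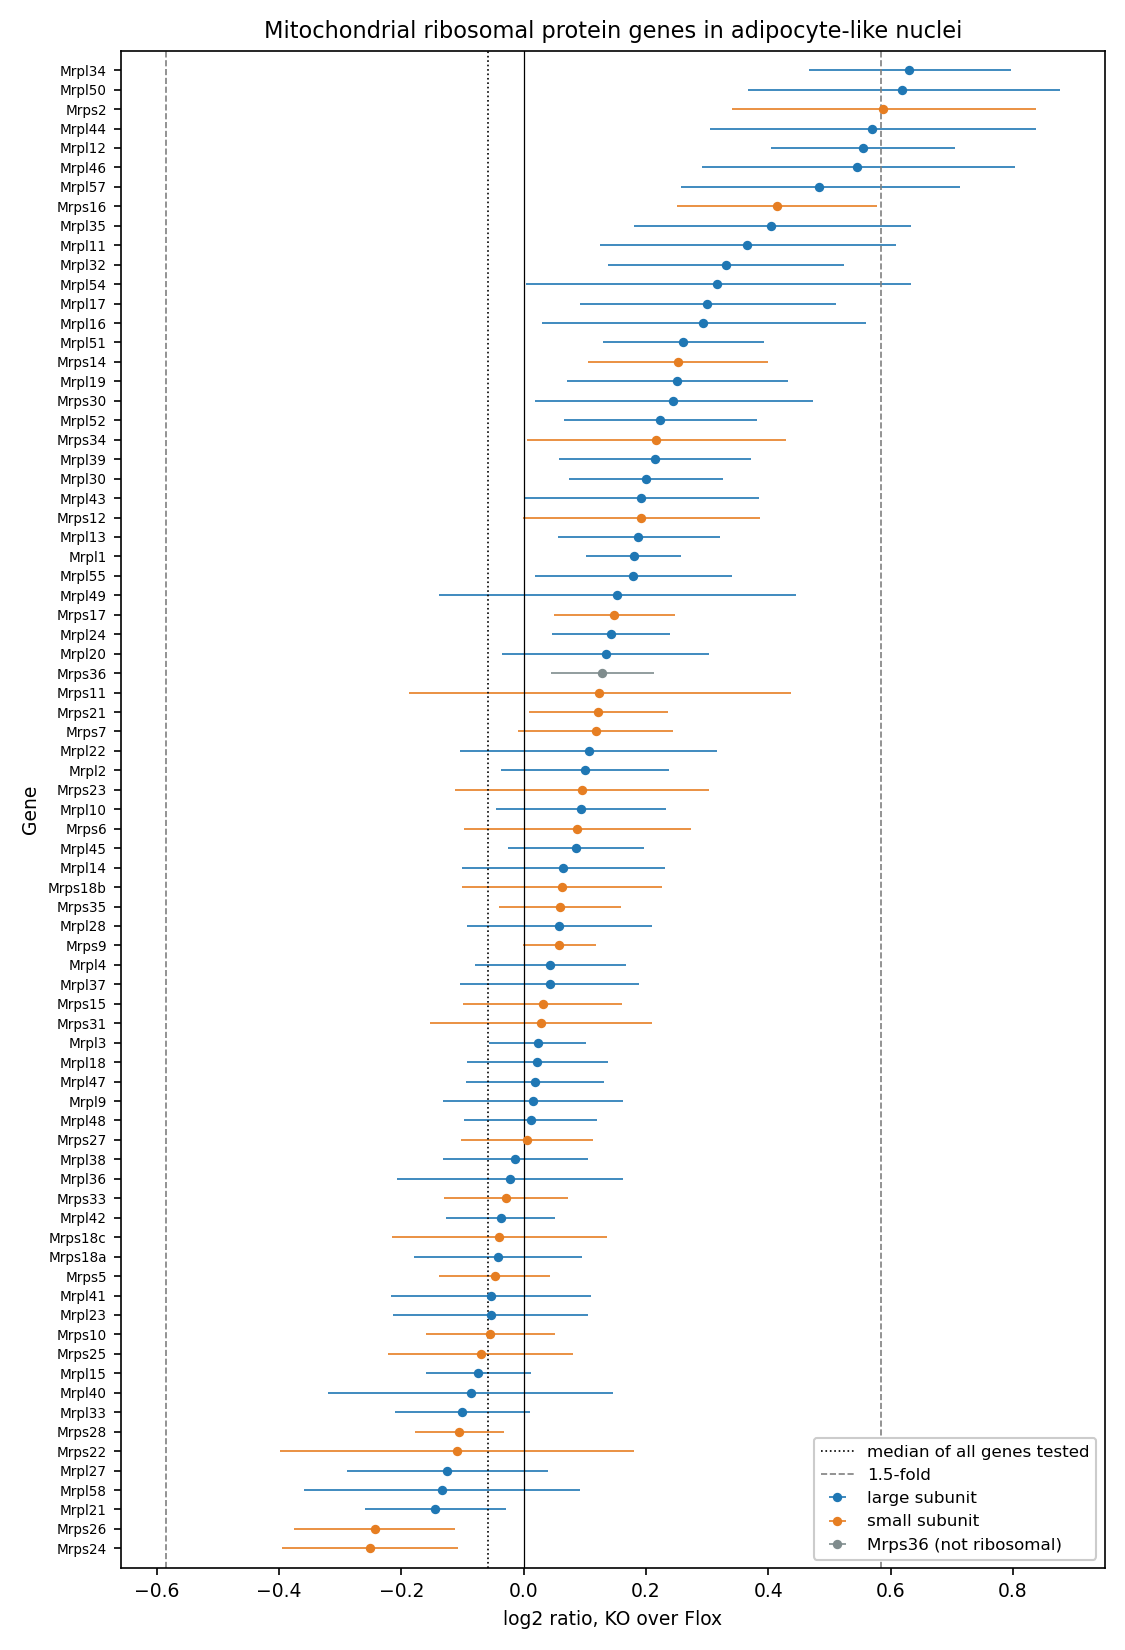
Log2 ratio of KO over Flox (horizontal axis) for the 77 genes measured in adipocyte-like nuclei (vertical axis, ordered by ratio), with 95% intervals for counting error and colours for the subunit. Solid, dotted and dashed lines mark 0, the median of all genes (-0.06) and 1.5-fold. The points run from -0.25 for Mrps24 to 0.63 for Mrpl34, and 3 lie beyond the upper dashed line.

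Adipocyte-like nuclei fell into clusters 0, 1, 2 and 7, and the ratios differed somewhat among them. The clusters made up different parts of the class in each library: cluster 0 held 4999 KO and 3833 Flox nuclei (60.7% and 43.2% of the class), cluster 1 2228 and 2385 (27.0% and 26.9%), cluster 2 735 and 2274 (8.92% and 25.6%) and cluster 7 275 and 389 (3.34% and 4.38%). The part of this makeup in the ratios of the whole class was not tested. The summed level was 2656 CPM in KO and 2602 in Flox in cluster 0 (ratio 1.02), 2526 and 2377 CPM in cluster 1 (1.06), 2661 and 2449 CPM in cluster 2 (1.09), and 1974 and 2000 CPM in cluster 7 (0.987, 0.930 to 1.05). Cluster 7 had the lowest level in both libraries. Genes with a log2 ratio above 0 numbered 47 of 77, 53 of 77, 60 of 77 and 22 of 37 in that order of clusters, with all genes at 45.9%, 43.3%, 42.6% and 49.9%. Mrpl34 had log2 ratios of 0.36, 0.96 and 0.68 in clusters 0, 1 and 2 and of -0.47 in cluster 7, which held only 8 KO and 13 Flox UMIs of it. Mrps24 lay below 0 in all 4 clusters, between -0.39 and -0.18. When cluster 1 was left out, which was decided once the values were known, 1 gene was at least 1.5-fold higher instead of 3.

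In endothelial-like nuclei the direction was the other way. The summed level was 1604 CPM (1548 to 1661) in KO and 1953 CPM (1899 to 2008) in Flox, a ratio of 0.821 (0.785 to 0.859), over 954 and 1484 nuclei. Of 66 genes with at least 50 UMIs, 12 lay above 0, where 43.9% of all 8784 genes did, and the median log2 ratio was -0.29 against -0.04. At least 1.5-fold lower were 12 genes, against 9.11% of all genes, and at least 1.5-fold higher was 1, against 2.68%. Large-subunit genes had a median of -0.32 and small-subunit genes -0.26. Mrps18b, a small-subunit protein, had 11 UMIs in KO and 39 in Flox, a log2 ratio of -1.37 (-2.53 to -0.43). Mrpl34 had 15.4 CPM in KO and 31.7 CPM in Flox, a log2 ratio of -1.03 (-1.70 to -0.42), and Mrpl17 of the large subunit had 16.9 and 33.3 CPM, a log2 ratio of -0.96 (-1.60 to -0.38). With doublets kept Mrpl34 had -0.11, and with the mean CPM over nuclei Mrpl17 had -0.33. The highest were Mrps12, of the decoding centre, at 0.70 (-0.02 to 1.43), Mrpl14 at 0.27 and Mrps9 at 0.24, each with an interval that included 0.

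The size of the endothelial difference depended on the treatment of the nuclei. With a clustering resolution of 0.3 the ratio of summed levels was 0.796 and 18 of 69 genes were at least 1.5-fold lower, and without nuclei whose barcode is in both libraries these were 0.818 and 15 of 66. With doublets kept the ratio was 0.913, the median log2 ratio -0.15 and the number at least 1.5-fold lower 2. With filters at 500 genes and 5% mitochondrial UMIs they were 0.893, -0.13 and 3, and with the mean CPM over nuclei 0.915, -0.19 and 6. With at least 200 UMIs required, 5 genes were left, with a median of 0.0059. Shares of all genes past 1.5-fold were not counted in these settings. Markers of other cells also differed. All 12 adipocyte markers had UMIs in endothelial-like nuclei, with a summed level of 7802 CPM in KO and 8328 in Flox. Of the 11 skeletal muscle markers 10 had UMIs in KO (Mybpc2 was at 0) and 11 in Flox, with summed levels of 120 CPM and 417 CPM. The same markers were lower in KO in every other class compared. Adipocyte-like nuclei had 86.9 CPM in KO and 204 in Flox (11 of 11 with UMIs in both libraries). Fibroblast/progenitor-like nuclei had 137 and 369 CPM (11 of 11 in both), and pericyte/smooth muscle-like nuclei 217 and 432 CPM (9 of 11 in both). Macrophage/monocyte-like nuclei had 98.6 and 274 CPM (10 and 11 of 11) and T/NK-like nuclei 184 and 535 CPM (9 and 11 of 11). The part of these markers in the endothelial result was not tested.

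Fibroblast/progenitor-like nuclei lay between. The ratio of summed levels was 0.928 (0.892 to 0.966), the median log2 ratio over 70 genes was -0.10 against -0.03 for all 9938 genes, and 28 lay above 0, where 45.2% of all genes did. At least 1.5-fold lower were 4, against 4.04% of all genes, and at least 1.5-fold higher was 1, against 2.94%. Mrpl2, a core protein of the large subunit, had 26 UMIs in KO and 75 in Flox, a log2 ratio of -1.14 (-1.86 to -0.50). Mrpl18, which belongs to the same family as the bacterial 5S RNA-binding protein, had 28 UMIs in KO and 70 in Flox, a log2 ratio of -0.94 (-1.64 to -0.30), and Mrpl39 had -0.62 with an interval that included 0. The highest, Mrps30 at 0.64, Mrpl28 at 0.48 and Mrpl12 at 0.43, had intervals that included 0. Skeletal muscle markers, 11 of 11 with UMIs in both libraries, had 137 CPM in KO and 369 CPM in Flox here, and adipocyte markers, 12 of 12 with UMIs, 3430 and 4229 CPM, and their part was not tested.

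In the smaller classes the depth allowed few genes to be measured singly. The ratio of summed levels was 0.999 (0.927 to 1.08) in macrophage/monocyte-like nuclei, 1.01 (0.926 to 1.11) in T/NK-like nuclei and 0.952 (0.864 to 1.05) in pericyte/smooth muscle-like nuclei, and each interval held 1, so a difference could not be detected at these depths. In macrophage/monocyte-like nuclei 13 genes had at least 50 UMIs, from Mrpl48 at 0.45 to Mrps33 at -0.44 (log2), with 9 above 0 where 48.8% of all genes were, and 0 were 1.5-fold apart either way, against 4.57% higher and 4.55% lower among all genes. T/NK-like nuclei had 8, with 4 above 0 where 49% of all genes were, 1 at least 1.5-fold higher (8.21% of all genes) and 1 at least 1.5-fold lower (9.08%). The lower one, Mrpl15, had 15 UMIs in KO and 38 in Flox, a log2 ratio of -0.92 (-1.91 to -0.05), and the higher one, Mrpl1, had 0.63 (-0.07 to 1.35). Pericyte/smooth muscle-like nuclei had 3, Mrps28 at 0.34, Mrps9 at -0.22 and Mrpl1 at -0.26, each with an interval that included 0. None was 1.5-fold apart, against 5.3% higher and 6.94% lower among all genes, and 1 of 3 was above 0, against 48.7%.

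Gene length moved with the ratios. Genes under 5 kb had in adipocyte-like nuclei a median log2 ratio of 0.19 (25 genes, 21 above 0), where all genes of that length had 0.12. The share above 0 among all genes of that length was not counted. Between 5 and 10 kb the medians were 0.11 (27 genes) and 0.01, and between 10 and 20 kb -0.01 (14 genes) and -0.03. Between 20 and 50 kb they were 0.04 (4 genes) and -0.06, and at 50 kb or more 0.01 (7 genes) and -0.12. Across the 77 genes log2 length and log2 ratio had a Pearson r of -0.38 and a Spearman rho of -0.43, and across 12321 genes -0.21 and -0.23. In endothelial-like nuclei the order was turned: genes under 5 kb had a median of -0.47 (23 genes), where all genes of that length had -0.13, and those of 50 kb or more -0.12 (6 genes) and -0.01. The part of gene length in the ratios was not tested.

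**Figure D4:**
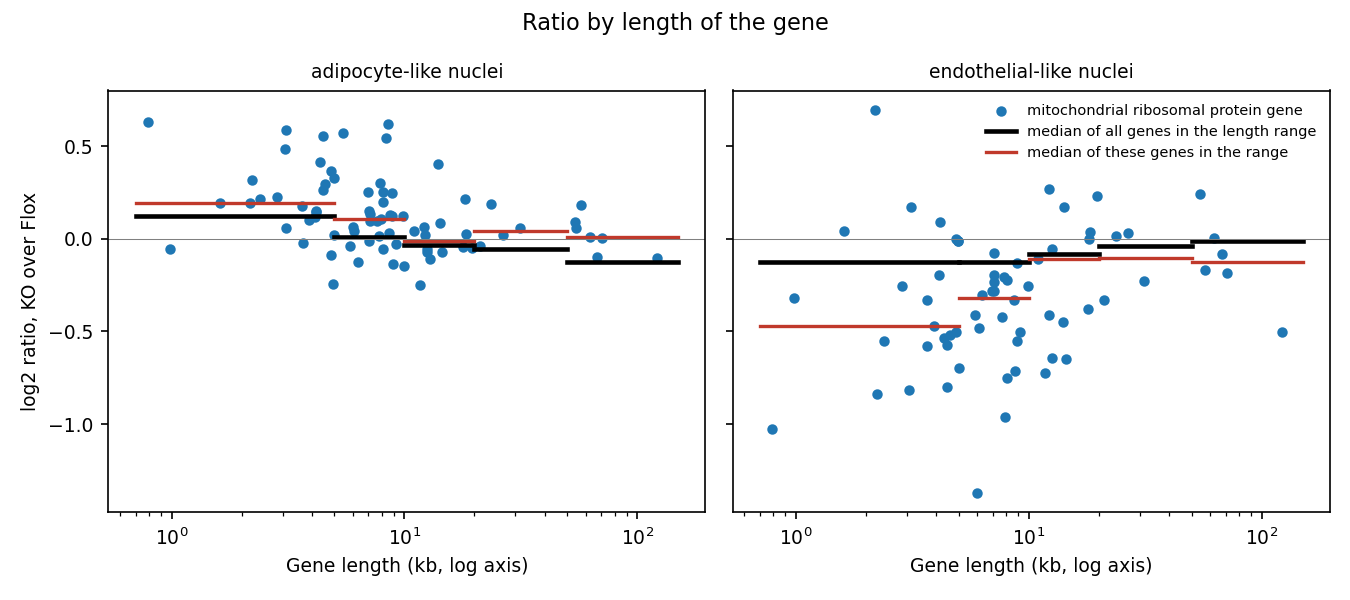
Log2 ratio of KO over Flox (vertical axis) against gene length in kb (horizontal log axis) for mitochondrial ribosomal protein genes in adipocyte-like (left) and endothelial-like nuclei (right). Black lines are medians of all genes in a length range and red lines medians of these genes. Under 5 kb the red line is at 0.19 in adipocyte-like and at -0.47 in endothelial-like nuclei, against 0.12 and -0.13 for all genes.

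Genes that act with the mitoribosome had list medians between -0.03 and 0.17 in adipocyte-like nuclei, where 40.7% of all genes lay above 0. In adipocyte-like nuclei the 5 mitoribosomal proteins under other symbols had a median log2 ratio of 0.17, with 5 of 5 above 0. Among them Ptcd3 had 168 CPM in KO and 146 CPM in Flox, and Gadd45gip1 had a log2 ratio of 0.44. The 28 genes of mitoribosome assembly and rRNA modification had a median of 0.01 (16 above 0), from the RNA helicase gene Ddx28 at 0.59 to the GTPase gene Mtg2 at -0.42. The 14 mitochondrial translation factors had -0.03 (6 above 0), with Tufm, the elongation factor that delivers aminoacyl-tRNA, at 0.42 and Gfm2, a ribosome recycling factor, at -0.16. The 22 mitochondrial aminoacyl-tRNA synthetases had -0.02 (9 above 0), from Yars2 at 0.37 to Iars2 at -0.29. The 17 genes of mitochondrial transcription and RNA maintenance had -0.03 (6 above 0), from Mtpap, the mitochondrial poly(A) polymerase, at 0.33 to Prorp, a component of mitochondrial RNase P, at -0.34. The 10 regulators of mitochondrial biogenesis had a median of 0.02 (5 above 0). The highest was the coactivator gene Ppargc1a, with 776 CPM in KO and 549 CPM in Flox (log2 ratio 0.50). The lowest was Nrf1, the nuclear respiratory factor, with 193 and 225 CPM (-0.22).

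Other groups were set beside them. The 54 gene IDs of the nuclear-encoded respiratory chain, the complexes that hold the products of the mitoribosome, had, in adipocyte-like nuclei, a median of 0.29 (log2 ratio, 48 above 0, where 40.7% of all genes were), led by Cox8b at 0.84. In endothelial-like nuclei the same list had -0.77 (0 above 0, against 43.9% of all genes). The cytosolic ribosomal protein genes had medians of 0.31 in adipocyte-like, 0.34 in fibroblast/progenitor-like and -0.27 in endothelial-like nuclei. RNAs encoded by mitochondrial DNA had 1.48, 1.46 and 0.34 in those classes in that order. They also had 1.17 in macrophage/monocyte-like, 1.12 in T/NK-like and 0.59 in pericyte/smooth muscle-like nuclei. Their share of all UMIs was 1.28% in KO and 0.468% in Flox in adipocyte-like nuclei, and 1.62% and 1.29% in endothelial-like nuclei. The libraries were made from nuclei, and where the RNAs encoded by mitochondrial DNA came from was not tested. All these lists come from the same libraries, and no difference between lists was tested.

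**Figure D5:**
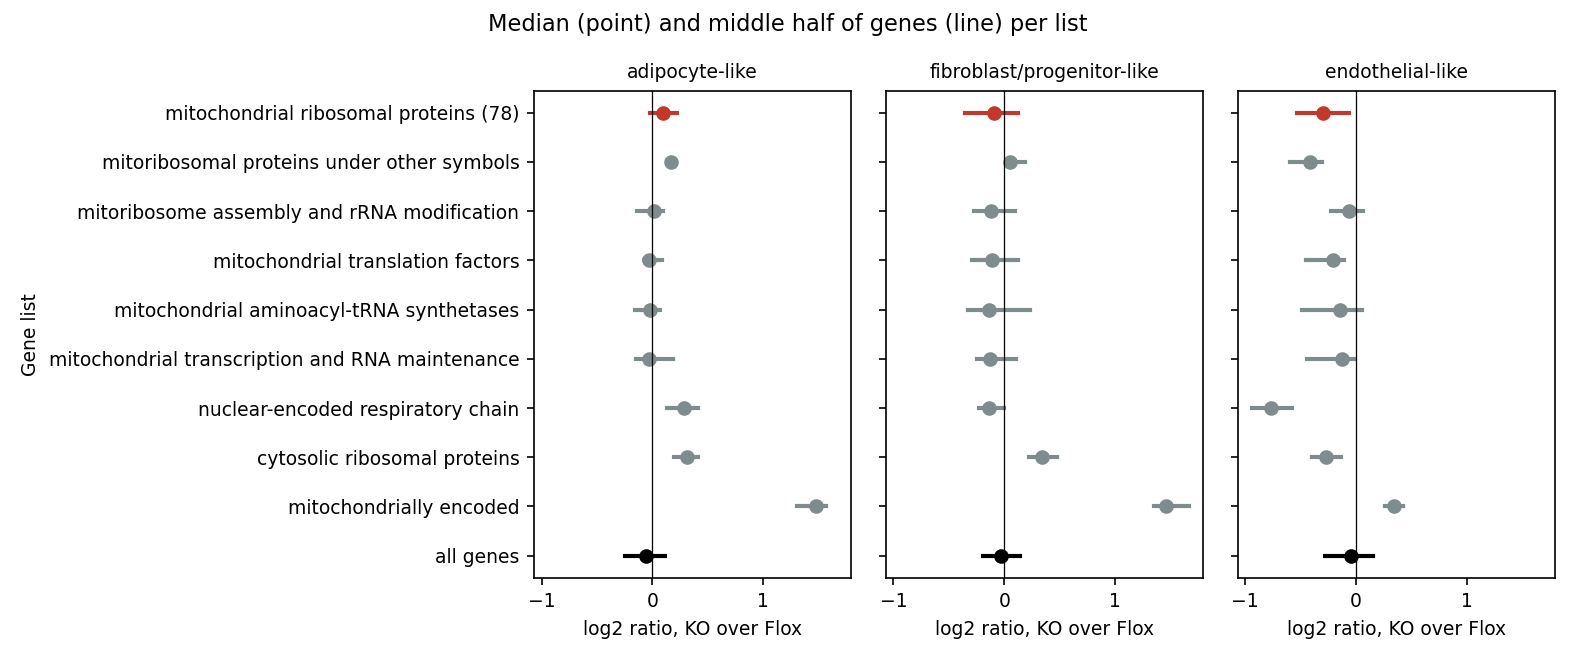
Median log2 ratio of KO over Flox (points, horizontal axis) and the range from the lower to the upper quartile (lines) for each gene list (vertical axis) in adipocyte-like, fibroblast/progenitor-like and endothelial-like nuclei. The mitochondrial ribosomal protein genes, in red, have medians of 0.09, -0.10 and -0.29, and all genes, in black, -0.06, -0.03 and -0.04. The mitochondrially encoded RNAs lie furthest to the right in each panel.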

How the data were processed

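Processed files held UMI counts per gene and barcode, deposited by the authors and counted by Cell Ranger 5.0.0, per the file headers, on mm10 per the submitters' processing notes. No source used here states how intron reads and strand were handled. Barcodes under 200 genes or over 10% mitochondrial UMIs were removed (129 KO, 99 Flox). Scrublet scores (scanpy 1.11.5) removed doublets up to 0.8% per 1000 barcodes (1331 KO, 2060 Flox). Both libraries were clustered together without batch correction (2000 variable genes, none of the 78 among them, 30 components, 15 neighbours, Leiden resolution 0.5, leidenalg 0.10.2), which gave 16 clusters, named from 16 marker lists. Names carry "-like" since they rest on RNA alone. The 6 classes with at least 100 nuclei per library were compared.

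UMIs were summed per class and library. CPM has exact Poisson intervals, and ratios have exact binomial intervals. Log2 ratios were taken with 0.5 UMI added, where a class held 50 or more UMIs of the gene. Shares have Clopper-Pearson intervals. Gene positions came from GENCODE vM21 by gene ID. Subunit and family were assigned from textbook knowledge. The counting was tested on simulated data. TMM factors came from edgeR 4.0.16. Genes given singly were the 8 most abundant, the 8 highest and 8 lowest ratios in adipocyte-like nuclei, 3 each way in other classes, the 4 furthest each way in adipocyte-like over other nuclei, and 3 by name. Genes and lists were chosen with earlier results of these data known. Related lists were summarised over all their genes, with up to 2 named each way, and 1 respiratory chain symbol is carried by 2 gene IDs. Figures were drawn in matplotlib 3.10.9, and tables were handled in pandas 2.3.3 with NumPy 2.4.6 and SciPy 1.17.1 under Python 3.11.15.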

Additional observations from a re-analysis of the deposited data

Results flagged for a closer look

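The ratio of KO over Flox lay on opposite sides between classes, and this difference between classes was not tested, since each genotype has 1 library. The summed level of the 78 genes had a ratio of 1.05 in adipocyte-like nuclei, against 0.928 in fibroblast/progenitor-like nuclei and 0.821 in endothelial-like nuclei, and none of these intervals held 1.

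The same held for 6 single genes, whose intervals lay above 0 in adipocyte-like nuclei and below 0 in endothelial-like nuclei. The share of all genes that did so was not counted, so these 6 are not set apart from other genes. Mrpl34 had log2 ratios of 0.63 in adipocyte-like and -1.03 in endothelial-like nuclei, Mrpl12 of 0.55 and -0.57, and Mrpl57 of 0.48 and -0.82. Mrpl54 had 0.32 and -0.84, Mrpl17 0.30 and -0.96, and the non-ribosomal Mrps36 0.13 and -0.71. With doublets kept, the endothelial log2 ratio of Mrpl34 was -0.11.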

How the results depend on the processing

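No paired analysis was possible because each genotype has 1 library. Of 248 alternative values for groups of genes, 208 stayed within their error or within 1.5 times the count and 40 moved. Of 687 for single genes, 670 stayed and 17 moved. Thinning gave log2 ratios of -1.22 for Mrpl1 in pericyte/smooth muscle-like nuclei, 1.71 for Mrps12 in endothelial-like nuclei and 0.56 for Mrps33 in macrophage/monocyte-like nuclei. Without shared barcodes the ratios of summed levels were 1.05 in adipocyte-like, 0.929 in fibroblast/progenitor-like and 0.818 in endothelial-like nuclei. None of the 78 genes was a variable gene, so clustering without them gave the same classes. The values of that setting could not move, and they are counted among those that stayed.

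In adipocyte-like nuclei TMM factors gave a ratio of 1.09, a median log2 ratio of 0.15 and 6 genes at least 1.5-fold higher. Leaving mitochondrially encoded RNAs and the top 20 genes out of the totals gave a ratio of 1.06. The mean CPM over nuclei gave 1.03, a median of 0.059 and 0 higher, and thinning gave 1.03 and 0.045. Without cluster 1, 1 was higher. In fibroblast/progenitor-like nuclei 2 genes were at least 1.5-fold higher with doublets kept and 2 with mean CPM, which also gave 6 lower. Thinning left 34 genes, 12 above 0 (47.3% of all genes) and 2 at least 1.5-fold lower. A minimum of 200 UMIs left 9, with 3 above 0 (43.8% of all genes), 0 higher and 0 lower. Shares of all genes past 1.5-fold were not counted under the alternatives for these 2 classes.

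In endothelial-like nuclei, doublets kept gave 0.913 and -0.15, with 22 of 76 genes above 0, against 43.2% of all genes. There 0 were at least 1.5-fold higher and 2 lower. The stricter filter gave 0.893 and -0.13, with 20 of 61 above 0 (43.8% of all genes) and 3 lower. Mean CPM gave 0.915 and -0.19, with 19 above 0 (44.1% of all genes) and 6 lower. Thinning gave 0.867 and -0.13 over 16 genes, with 5 above 0 (45.5% of all genes), 0 higher and 1 lower. A minimum of 200 UMIs gave a median of 0.0059 over 5 genes. Of these 3 were above 0 (46.2% of all genes), 0 higher and 0 lower. Without genes that overlap another, 7 of 48 were above 0 (43.9% of all genes). Shares of all genes past 1.5-fold were not counted under these alternatives. The causes were not tested. Depth limits single genes outside adipocyte-like nuclei, and intervals leave out the spread between nuclei and mice.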
